A study of Mus musculus with 18 samples.

Results

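The protein disulfide isomerases of the mouse prostate were followed through P4hb, Pdia3, Pdia4, Pdia5, Pdia6, Dnajc10 and Txndc5, together with Ero1lb, an oxidase that recharges them. These 8 genes were taken by symbol from the 55469 genes of the deposited tables and all 8 passed the filter on low counts in each of the 4 tables. Total RNA of prostate, its ventral and lateral lobes taken, was sequenced from mice listed as strain C56NL/6N and aged 10 or 30 weeks. Each of the 6 groups, WT, KO and A537T at either age, held 3 libraries.

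WT mice carried intact Elac2 (ELAC2+/+), the gene of a nuclear and mitochondrial RNase Z that trims the 3′ ends of tRNAs. KO mice lacked exon 8 of Elac2 only where the prostate-directed Pb-Cre was active, so cells of the lobes without Cre kept the gene. A537T mice were homozygous, in the whole body, for the exchange of alanine for threonine that names the line. None of the groups used here carried the TRAMP transgene, and the labels name no agent. By the labels' protocol the seminal vesicles, bladder, urethra and adipose tissue were taken off before the lobes were dissected. The libraries are named as in the tables. The 10-week WT libraries are 10AF to 12AF, the KO libraries of that age 13AF to 15AF and those of A537T 16AF to 18AF. The 30-week WT libraries are 1AF to 3AF, those of KO 4AF to 6AF and those of A537T 7AF to 9AF. The 3 WT libraries of an age served both lines, so that the comparisons of KO and of A537T at one age are not independent of each other.

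Protein disulfide isomerases are thioredoxin-like enzymes of the endoplasmic reticulum (ER) that form, break and rearrange the disulfide bonds of proteins on their way to secretion. P4hb, the founding member, and Pdia3, Pdia4, Pdia6 and Txndc5 differ in the proteins they serve, Dnajc10 reduces the bonds of misfolded proteins, and the Ero1 oxidases return electrons from the isomerases to oxygen. The secretory cells of the prostate release large amounts of protein into the seminal fluid, and many genes of this system are under the control of the unfolded protein response.

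The libraries ranged from 6569642 to 11225281 counts (median 8586877), as recovered from the deposited values. The members were well covered, with 44 to 137 recovered counts for Pdia5, 268 to 638 for Ero1lb and at least 851 for each of the others in every library. Elac2 stood at 124, 142 and 166 normalized counts in WT at 10 weeks against 119, 111 and 115 in KO, and at 150, 153 and 194 in WT at 30 weeks against 98.4, 151 and 122 in KO. The value of 151 is that of the KO library 5AF and lay within the WT range. Gene counts include the exons that stay in place and the cells without Cre, and so check the deletion only in part. Genes of prostatic secretion took 0.347 to 14.6% of counts and 7 luminal epithelial markers 0.111 to 0.216%, so prostate RNA was present in all 18 libraries. Which lobes it came from was not tested. The secretion genes were unevenly spread, with 0.347 to 3.74% in KO at 10 weeks against 3.58 to 13.2% in WT of that age. Luminal markers took 0.139 to 0.145% in the same KO libraries and 0.111 to 0.156% in WT. In 9 libraries, 10 genes of the seminal vesicle exceeded 1% of counts. These were 10AF and 11AF (4.64 and 1.77%) in WT and all KO libraries (6.56 to 10.3%) at 10 weeks, with 4AF and 6AF (8.53 and 6.32%) in KO and 7AF and 9AF (7.24 and 9.18%) in A537T at 30 weeks. In 29 skeletal muscle genes the 10-week WT libraries held 4.04 to 13.1% of counts, against 0.0626 to 2.11% in KO and 1.58 to 4.48% in A537T, while at 30 weeks no library exceeded 0.0753%. In bulk tissue, fewer cells of a type and less RNA per cell cannot be told apart.

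The genes lie apart in the genome (GRCm38, GENCODE vM21). Dnajc10 is at chr2:80315466-80354043 and Pdia3 at chr2:121413775-121438687, both on the forward strand. Pdia4 is at chr6:47796141-47813430 and P4hb at chr11:120560298-120573253, both on the reverse strand, and Pdia6 is at chr12:17266545-17284770 on the forward strand. Ero1lb is at chr13:12565874-12611396 on the forward strand, Txndc5 at chr13:38500079-38528824 and Pdia5 at chr16:35397312-35490873, both on the reverse strand. Small RNA genes lie on the same strand within Pdia4, Pdia5 and Ero1lb, and no other annotated gene overlaps a member on its strand.

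Promoter windows of the 8 genes were read from RefSeq sequences of build GRCm38.p6, from 250 bases before to 50 bases after the annotated start, in 32851 windows of the genome. Both strands were searched for the ER stress element (ERSE, the letters CCAAT and CCACG with 9 free bases between them), for ERSE-II (ATTGG and CCACG with 1 free base between them) and for the unfolded protein response element (UPRE, TGACGTGG), which are elements of the unfolded protein response. ERSE was present in Pdia6, at -98 to -80 from the start, and in Ero1lb, listed by RefSeq as Ero1b, on the opposite strand at -201 to -183. The windows of P4hb, Pdia3, Pdia4, Pdia5 and Dnajc10 held none of the 3 motifs, and 1 of the 3 windows of Txndc5 held UPRE. Of all windows, 0.119% held ERSE, 0.0365% ERSE-II and 0.676% UPRE. The 250 bases before the start are shown for the 2 genes with ERSE, with that motif in capitals, and for Pdia4 and Dnajc10, which stood furthest from WT in A537T at 10 and at 30 weeks respectively and held no match.
Pdia6 chr12:17266339-17266588, forward strand: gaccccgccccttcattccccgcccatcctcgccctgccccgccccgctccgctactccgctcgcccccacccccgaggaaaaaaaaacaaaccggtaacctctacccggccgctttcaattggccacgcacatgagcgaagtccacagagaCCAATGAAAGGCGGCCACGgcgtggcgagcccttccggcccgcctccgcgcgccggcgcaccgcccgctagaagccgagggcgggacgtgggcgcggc
Ero1lb chr13:12565633-12565882, forward strand: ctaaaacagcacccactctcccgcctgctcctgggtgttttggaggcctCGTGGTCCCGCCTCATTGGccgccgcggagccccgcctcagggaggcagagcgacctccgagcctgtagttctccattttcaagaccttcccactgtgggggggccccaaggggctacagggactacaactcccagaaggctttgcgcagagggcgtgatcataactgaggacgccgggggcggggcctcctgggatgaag
Pdia4 chr6:47813513-47813762, reverse strand: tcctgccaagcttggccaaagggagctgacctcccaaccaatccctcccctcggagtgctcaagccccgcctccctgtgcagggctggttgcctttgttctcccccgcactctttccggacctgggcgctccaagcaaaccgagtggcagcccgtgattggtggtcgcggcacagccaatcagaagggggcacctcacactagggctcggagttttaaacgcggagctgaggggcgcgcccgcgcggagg
Dnajc10 chr2:80315216-80315465, forward strand: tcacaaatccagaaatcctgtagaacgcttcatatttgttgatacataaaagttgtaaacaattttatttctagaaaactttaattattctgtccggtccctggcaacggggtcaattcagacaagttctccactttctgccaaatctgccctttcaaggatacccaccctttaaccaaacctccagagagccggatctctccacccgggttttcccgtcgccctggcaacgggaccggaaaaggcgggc

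On exon length, P4hb was the most abundant member in WT prostate. This order rests on the length of all annotated exons, 2861 bases in P4hb and 5004 in Dnajc10. Without it the mean normalized count of Dnajc10 was the higher, at 9204 against 8789 at 10 weeks and 16885 against 10585 at 30 weeks. P4hb had a mean level of 3072 normalized counts per kb of exon at 10 weeks (2309 to 3565 over 3 libraries), followed by Dnajc10 at 1839 (1731 to 2046). Pdia6, Pdia3 and Pdia4 came next at 931, 849 and 823 per kb, and their ranges overlapped from each to the next. Txndc5 at 224, Ero1lb at 50.4 and Pdia5 at 24.2 per kb formed the lower end, each without overlap with its neighbour. At 30 weeks the order was the same except that Pdia4 (1529 per kb) and Pdia3 (1482 per kb), which overlapped, changed places. P4hb at 3700 and Dnajc10 at 3374 per kb were then close but still apart. All 8 genes together made up 2503 to 3648 CPM (normalized counts scaled to the library total) in WT at 10 weeks and 4851 to 5010 in WT at 30 weeks, values that come from separately normalized tables and were not tested.

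**Figure D1:**
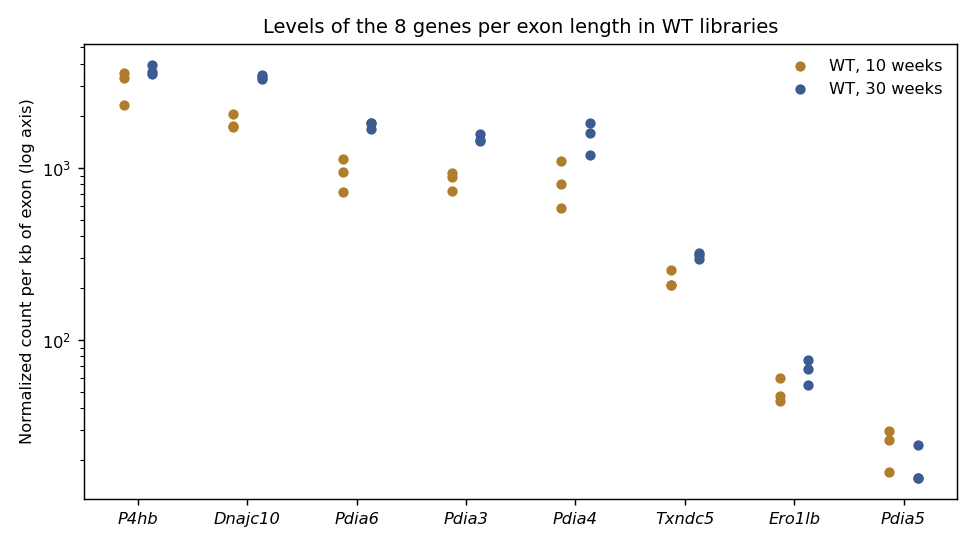
Normalized counts per kb of exon of each gene (log axis) in the 3 WT libraries of each age, 1 point a library. P4hb and Dnajc10 lead at both ages, and Pdia5 is lowest, at a mean of 24.2 per kb at 10 weeks and 18.6 at 30 weeks.

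In KO prostates at 10 weeks, Pdia3, Pdia4 and Pdia5 were higher in every KO library than in any WT library, by 1.40-fold, 2.02-fold and 2.04-fold. No other member separated the groups. Across 15089 genes, limma and edgeR each called 0 at an adjusted p under 0.05, DESeq2 called 715, and 2930 had an unadjusted limma p under 0.05. The members at that unadjusted p were the same 3, all higher. Over all genes 7.97% were higher and 11.5% lower at that p, while 11.7% stood higher and 14.3% lower without overlap. Pdia4 (ERp72), an isomerase with several thioredoxin domains, had normalized counts of 2609, 1920 and 1397 in the WT libraries and 3194, 4012 and 4499 in the KO libraries. The means were 1975 ± 608 and 3902 ± 660 (SD, n = 3). All KO libraries lay above all WT libraries, and the log2 difference was 1.01 with a 95% interval of 0.42 to 1.61 (limma adjusted p = 0.183).

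Pdia5 (PDIR), the member with the fewest counts, had normalized counts of 82.2, 72.5 and 46.9 in WT and 112.6, 137.0 and 156.6 in KO at 10 weeks. Its log2 difference was 1.03 (95% interval 0.42 to 1.64, limma adjusted p = 0.183). Pdia3 (ERp57), which works with calnexin and calreticulin on glycoproteins, stood at 2784, 2923 and 2286 in WT and at 3423, 3704 and 4049 in KO. The groups again did not overlap, with a log2 difference of 0.49 (95% interval 0.14 to 0.84, limma adjusted p = 0.188). DESeq2 on the recovered counts called Pdia4 (adjusted p = 0.0117) and Pdia5 (adjusted p = 0.0332) but not Pdia3 (adjusted p = 0.0506), where it called 1.21% of genes higher and 3.53% lower.

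The other 5 members overlapped with WT in KO at 10 weeks. P4hb, which also serves prolyl 4-hydroxylase as its beta subunit, ranged from 6606 to 10198 normalized counts in WT and from 9326 to 10508 in KO. Dnajc10 (ERdj5), a reductase that prepares misfolded proteins for degradation, differed by 0.00054 on the log2 scale with an interval of -0.38 to 0.38. Txndc5 (ERp46) differed by 0.01 (-0.29 to 0.31), Pdia6 (P5), a partner of the chaperone BiP, by 0.33 (-0.14 to 0.80) and Ero1lb by 0.29 (-0.09 to 0.67). Without 12AF the difference of Pdia6 was 0.16. The median difference of the 8 members was 0.31, against -0.01 for all genes tested.

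Leaving out the WT library 10AF took the log2 difference to 1.24 for Pdia4 and 1.19 for Pdia5, with limma adjusted p of 0.0219 and 0.0311, and took the calls over all genes from 0 to 2886. Every KO library at 10 weeks exceeded 1% in seminal vesicle genes, so no comparison without these libraries could be made. With a seminal vesicle score as covariate Pdia4 differed by 0.69, Pdia5 by 0.66 and Pdia6 by 0.04 on the log2 scale, none of them called. The 10-week WT libraries held more skeletal muscle counts than the KO libraries, and with a muscle score as covariate Pdia4 differed by 0.86 and Pdia5 by 0.85. Every KO library lay above every WT library in seminal vesicle share and below every WT library in muscle share. These fits therefore cannot part genotype from either share.

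**Figure D2:**
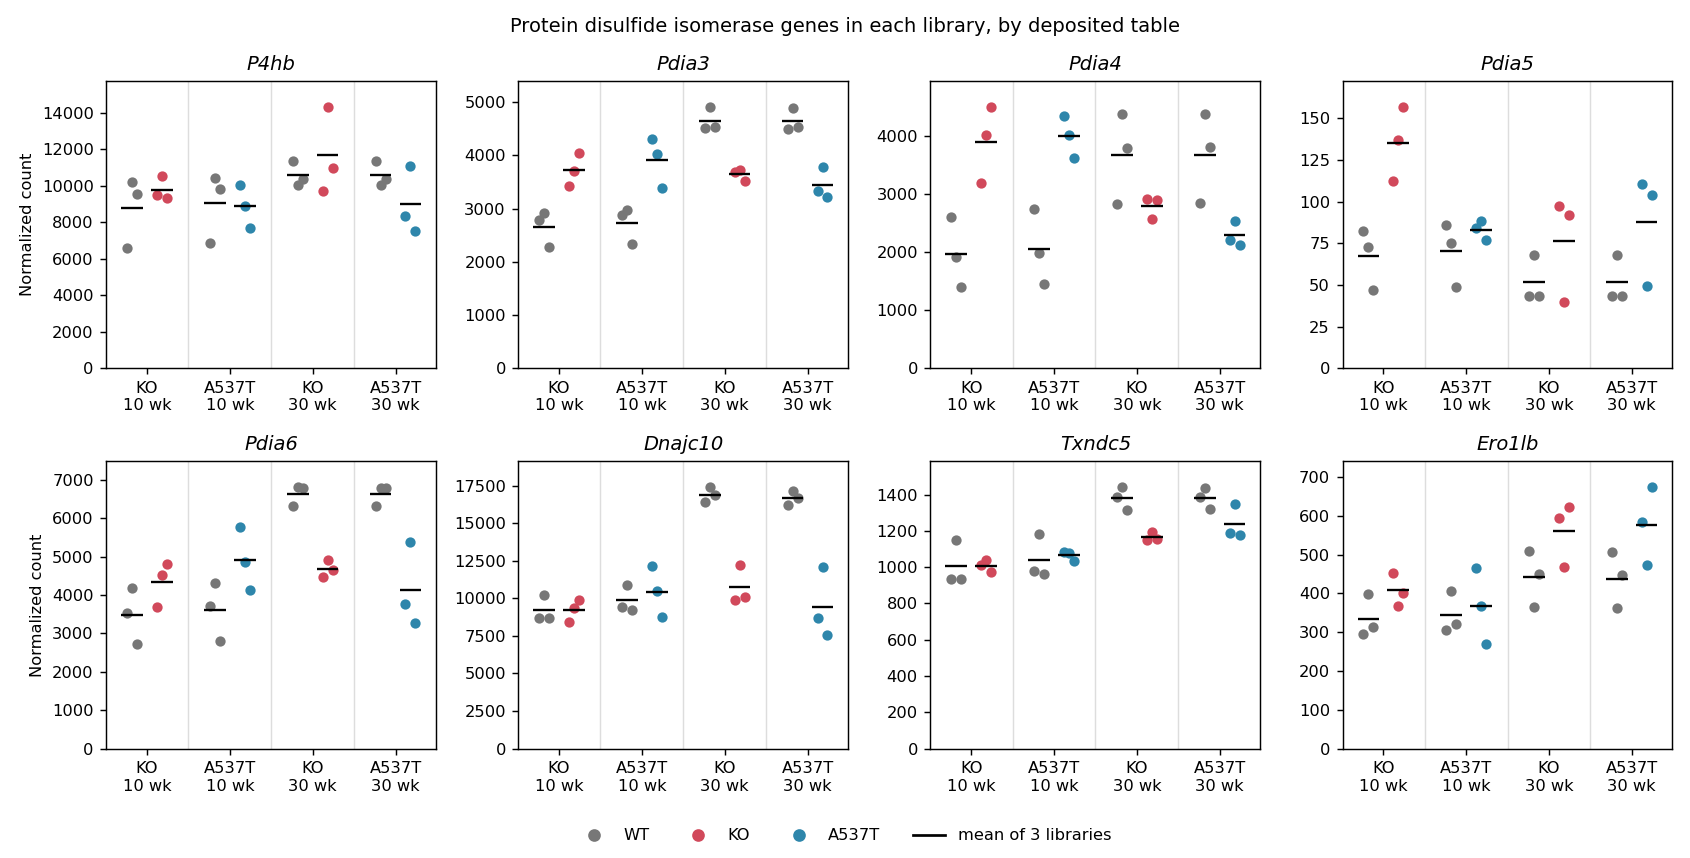
Normalized counts of each gene in every library, with 1 panel a gene and 1 block for each deposited table (WT in grey beside KO in red or A537T in blue, black lines at the mean of 3). Pdia4 had 1397 to 2609 in WT and 3194 to 4499 in KO at 10 weeks, without overlap, and 2835 to 4374 in WT and 2567 to 2914 in KO at 30 weeks, with overlap.

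In A537T prostates at 10 weeks, Pdia4 and Pdia3 were again above WT in every library, by 2.00-fold and 1.43-fold, and the other 6 members overlapped with WT. These 2 were also the members at an unadjusted limma p under 0.05. Over all genes 2.76% were higher and 3.67% lower at that p, while 5.58% stood higher and 6.34% lower without overlap. Pdia4 had 2747, 1984 and 1450 normalized counts in WT and 4348, 4024 and 3618 in A537T. Its log2 difference was 1.00 (95% interval 0.44 to 1.56, limma adjusted p = 0.746). Pdia3 had 2889, 2977 and 2337 in WT and 4304, 4031 and 3384 in A537T, a log2 difference of 0.52 (0.12 to 0.91, limma adjusted p = 0.746). These comparisons share their WT libraries with those of KO.

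Pdia6 was at 3712, 4315 and 2812 normalized counts in WT and at 5770, 4856 and 4116 in A537T, with a difference of 0.45 whose interval (-0.05 to 0.95) includes 0. In A537T the lowest Pdia6 library lay below the highest WT library. The difference was 0.28 for Pdia5 (interval -0.31 to 0.86, and 0.044 without 12AF or 0.44 without 10AF), 0.07 for Dnajc10 (-0.38 to 0.53), 0.04 for Txndc5 (-0.27 to 0.35) and 0.07 for Ero1lb (-0.46 to 0.60). P4hb differed by -0.01 (-0.54 to 0.51), a direction that turned with scaling to the same total (0.13) and with quantile normalization (0.22). The median of the 8 members was 0.18 against 0.01 for all genes. No member was called by limma, edgeR or DESeq2. Of 15131 genes limma and edgeR called 0, with 973 at an unadjusted limma p under 0.05, and DESeq2 called 90 (0.185% higher, 0.41% lower).

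The A537T libraries at 10 weeks held at most 0.2% seminal vesicle counts. Against 12AF, the single WT library of that age under 1%, Pdia4 was higher by 1.46 on the log2 scale (limma adjusted p = 0.0258), Pdia6 by 0.79 and Pdia3 by 0.73, in a fit that called 569 genes in place of 0. The spread in that fit comes from the A537T libraries alone, and 12AF also had the highest skeletal muscle share of all libraries, 13.1%. With 10AF left out, 50 genes were called. With a skeletal muscle score as covariate the difference of Pdia4 was 0.75 and that of Pdia5 0.03.

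**Figure D3:**
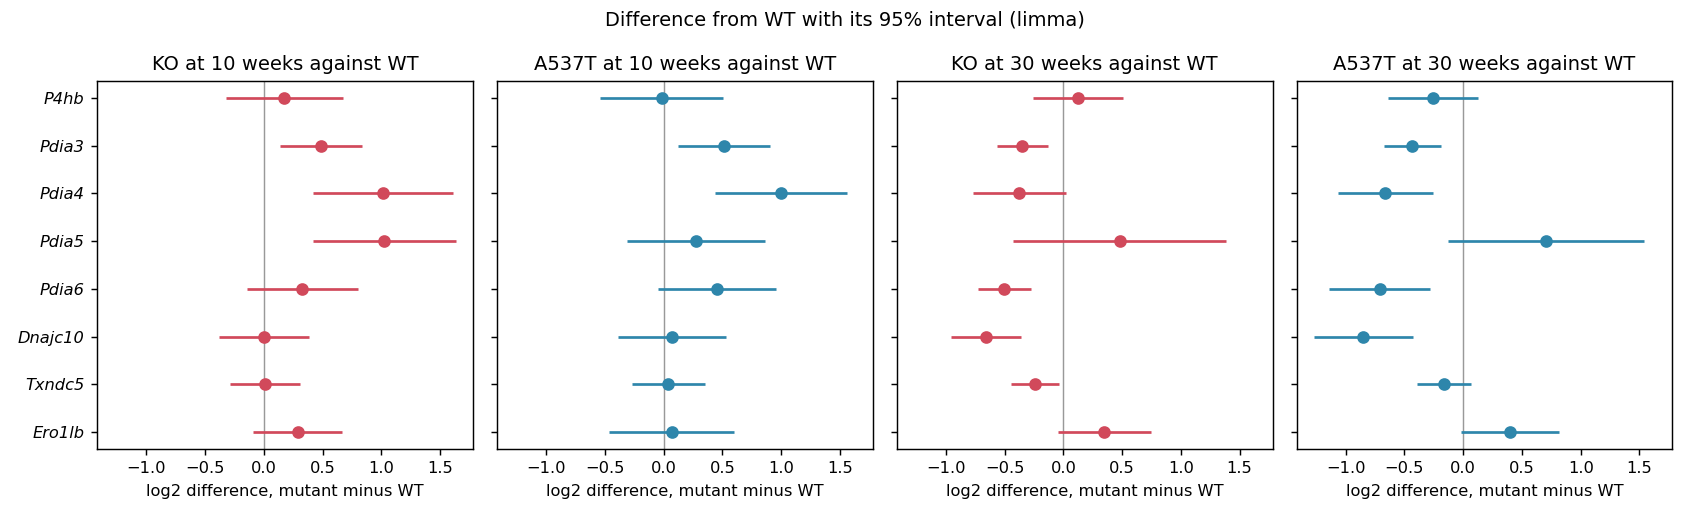
The log2 difference of each gene from WT with its 95% interval from limma, in 4 panels. At 10 weeks Pdia3 and Pdia4 lie above 0 in both lines, and at 30 weeks Pdia3, Pdia6 and Dnajc10 lie below 0 in both lines, with Dnajc10 at -0.66 and -0.85.

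In KO prostates at 30 weeks, 4 members were lower in every KO library than in any WT library, namely Dnajc10, Pdia6, Pdia3 and Txndc5, and none was higher without overlap. These 4 were also the members at an unadjusted limma p under 0.05. Over all 14729 genes 5.41% were lower and 5.56% higher at that p (1616 genes), while 8.41% stood lower and 7.92% higher without overlap, and limma and edgeR called 0 at an adjusted p under 0.05. Dnajc10 had 16409, 17389 and 16859 normalized counts in WT and 9866, 12217 and 10120 in KO. The means were 16885 ± 490 and 10735 ± 1290 (SD, n = 3). WT was 1.58-fold above KO, and the log2 difference was -0.66 (95% interval -0.96 to -0.36, limma adjusted p = 0.307).

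Pdia6 had 6316, 6801 and 6783 normalized counts in WT and 4477, 4909 and 4661 in KO at 30 weeks, a log2 difference of -0.50 (-0.73 to -0.28, limma adjusted p = 0.307). Pdia3 had 4518, 4908 and 4531 in WT and 3695, 3728 and 3514 in KO, a difference of -0.35 (-0.57 to -0.13, limma adjusted p = 0.391). Both genes were tight within each group, with gaps between the groups wider than either spread. Txndc5, an isomerase that is also abundant in plasma cells, had 1388, 1440 and 1317 in WT and 1152, 1192 and 1157 in KO, a difference of -0.24 (-0.45 to -0.04, limma adjusted p = 0.422).

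Pdia4 did not separate in KO at 30 weeks, with 2835, 4374 and 3798 normalized counts in WT and 2914, 2567 and 2894 in KO (difference -0.37, interval -0.77 to 0.02). The lowest WT library lay between the KO libraries. P4hb, highest of the KO libraries in 5AF at 14302 normalized counts, differed by 0.12 (-0.26 to 0.51), Ero1lb by 0.35 (-0.05 to 0.74) and Pdia5 by 0.48 (-0.42 to 1.39), all with overlap. The median of the members was -0.30 against -0.01 for all genes. DESeq2 called Dnajc10 (adjusted p = 0.000154), Pdia6 (adjusted p = 0.000299) and Pdia3 (adjusted p = 0.0394), where it called 285 genes, 0.611% of all lower and 1.32% higher.

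The KO library 5AF held 8.02e-05% seminal vesicle counts and lay below all WT libraries in Dnajc10, Pdia6, Pdia3 and Txndc5. Against WT it alone differed by -0.47 in Dnajc10, -0.43 in Pdia6, -0.32 in Pdia3 and -0.21 in Txndc5 on the log2 scale, with limma adjusted p from 0.858 to 0.895 and the spread taken from WT. Leaving out 5AF instead gave -0.76 for Dnajc10 (limma adjusted p = 0.00821) and -0.54 for Pdia6 (limma adjusted p = 0.0221), and raised the calls over all genes from 0 to 944. Luminal markers made up 0.216% of counts in 5AF, 0.134 and 0.147% in 4AF and 6AF and 0.185 to 0.208% in WT, and their part in the differences was not tested.

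In A537T prostates at 30 weeks, Dnajc10, Pdia6, Pdia4 and Pdia3 were lower in every library than in any WT library, with WT 1.80-fold, 1.64-fold, 1.58-fold and 1.35-fold above A537T. These 4 were also the members at an unadjusted limma p under 0.05. Over all 14789 genes 6.28% were lower and 7.35% higher at that p (2016 genes), while 9.4% stood lower and 9.18% higher without overlap, and limma and edgeR called 0 at an adjusted p under 0.05. Dnajc10 had 16194, 17145 and 16679 normalized counts in WT and 8669, 12095 and 7570 in A537T, a log2 difference of -0.85 (-1.27 to -0.42, limma adjusted p = 0.221). The library 8AF was the highest of the A537T libraries, and all 3 lay below WT.

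Pdia6 had 6307, 6785 and 6789 normalized counts in WT and 3771, 5369 and 3271 in A537T at 30 weeks (difference -0.71, interval -1.14 to -0.28, limma adjusted p = 0.271). Pdia4 had 2840, 4378 and 3814 in WT and 2216, 2545 and 2122 in A537T (difference -0.66, interval -1.06 to -0.26, limma adjusted p = 0.272). Pdia3 had 4504, 4890 and 4529 in WT and 3323, 3774 and 3222 in A537T (difference -0.43, interval -0.68 to -0.19, limma adjusted p = 0.249). In each of these genes 8AF was the A537T library nearest to WT.

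P4hb differed by -0.26 in A537T at 30 weeks (-0.64 to 0.13) and Txndc5 by -0.16 (-0.39 to 0.07), while Ero1lb differed by 0.40 (-0.02 to 0.81) and Pdia5 by 0.71 (-0.13 to 1.54). All 4 overlapped with WT. The median of the members was -0.34 against -0.01 for all genes. Luminal markers made up 0.128, 0.152 and 0.200% of counts in 9AF, 7AF and 8AF and 0.186 to 0.208% in WT, and their part in the differences was not tested. DESeq2 called Dnajc10 (adjusted p = 0.00141), Pdia3 (adjusted p = 0.0109), Pdia4 (adjusted p = 0.0159) and Pdia6 (adjusted p = 0.0222), where it called 476 genes, 1.01% of all lower and 2.21% higher.

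Library 8AF held 9.13e-05% seminal vesicle counts, against 7.24 and 9.18% in the other A537T libraries. Against WT it alone differed by -0.46 in Dnajc10, -0.51 in Pdia4, -0.30 in Pdia6 and -0.30 in Pdia3, none of them called by limma (adjusted p from 0.804 to 0.958). With the seminal vesicle score as covariate on all libraries, Dnajc10 differed by -0.49, Pdia6 by -0.33 and Pdia5 by 0.07. Without 8AF the differences of Dnajc10, Pdia6 and Pdia3 were -1.04, -0.92 and -0.50, with limma adjusted p of 0.00343, 0.00474 and 0.0219, and 1224 genes were called in place of 0. Plasma and B cell genes, from cells that themselves secrete much disulfide-bonded protein, stood at 0.0297 to 0.109% of counts in A537T against 0.00766 to 0.0122% in WT. Of these 16 genes 9 passed the filter on low counts in this table and 7 in that of KO with the same WT libraries, so no count over them is given. Their score was higher in every A537T library than in WT, so a fit with it cannot part genotype from the score. With it as covariate, Dnajc10 differed by -2.07, Pdia6 by -2.09 and Pdia4 by -1.76, none of them called.

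The difference from WT was lower at 30 weeks than at 10 weeks for Pdia3, Pdia4 and Pdia6 in both lines, at an exact p of at most 0.015, but no gene passed after adjustment over all genes. The log2 difference at 30 weeks minus that at 10 weeks was tested with an exact two-sided permutation test. Genotype labels were exchanged inside each age, giving 400 arrangements and a smallest possible p of 0.005. With that smallest p, a gene could pass the adjustment over all genes only if many other genes reached it too. The adjustment over all genes therefore cannot decide for single genes. In KO 1.71% of 14295 genes were lower and 1.85% higher in this difference at a p up to 0.015, and in A537T 2.21% of 14292 lower and 1.92% higher. At a p under 0.05 these shares were 4.01 and 4.59% in KO, with 3 members lower, and 5.23 and 4.68% in A537T, with 4 members lower. Pdia4 went from 1.01 to -0.37 in KO, a difference of -1.39 (exact p = 0.015, adjusted over all genes 0.420), and from 1.00 to -0.66 in A537T, a difference of -1.66 (exact p = 0.005, adjusted over all genes 0.308). Pdia3 went from 0.49 to -0.35 in KO, by -0.84 (exact p = 0.005, adjusted over all genes 0.357), and from 0.52 to -0.43 in A537T, by -0.95 (exact p = 0.005, adjusted over all genes 0.308). Pdia6 went from 0.33 to -0.50 in KO, by -0.83 (exact p = 0.01, adjusted over all genes 0.391), and from 0.45 to -0.71 in A537T, by -1.16 (exact p = 0.01, adjusted over all genes 0.342).

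The WT libraries of both ages are shared by these tests of KO and A537T. For Dnajc10 the difference between ages was -0.66 in KO (exact p = 0.05, adjusted over all genes 0.531) and -0.92 in A537T (exact p = 0.035, adjusted over all genes 0.427), and -0.88 and -1.04 under scaling to the same total (exact p = 0.02 and 0.025). Txndc5 in KO was at -0.25 (exact p = 0.08) and under that scaling at -0.47 (exact p = 0.025). P4hb, Pdia5 and Ero1lb had exact p between 0.37 and 0.84.

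Without any single library the exact p stayed at or under 0.01 for Pdia3 in both lines and Pdia4 in A537T. These genes stood above WT at 10 weeks and below it at 30 weeks, each time without overlap. Leaving out a library keeps that separation, so their low exact p restates it and is no separate check. With a library left out, the exact p stayed at or under 0.03 for Pdia4 in KO. For Pdia6 it stayed at or under 0.02 in KO and 0.025 in A537T. The exact p of Dnajc10 in KO lay between 0.02 (without 11AF) and 0.08, and in A537T between 0.015 (without 18AF) and 0.08 (without 2AF). That of Txndc5 was lowest without 11AF, at 0.01 for KO and 0.015 for A537T, and reached 0.2 for KO and 0.29 for A537T without 12AF. In WT, Pdia4 averaged 823 normalized counts per kb at 10 weeks and 1529 at 30 weeks. These means come from separately normalized tables and their difference was not tested. In CPM, Pdia4 in WT ranged from 135 to 326 at 10 weeks and from 319 to 468 at 30 weeks, with overlap. The 10-week WT libraries also carried more skeletal muscle counts than any library at 30 weeks. The part of the WT level and of the muscle share in the difference between ages was not tested.

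**Figure D4:**
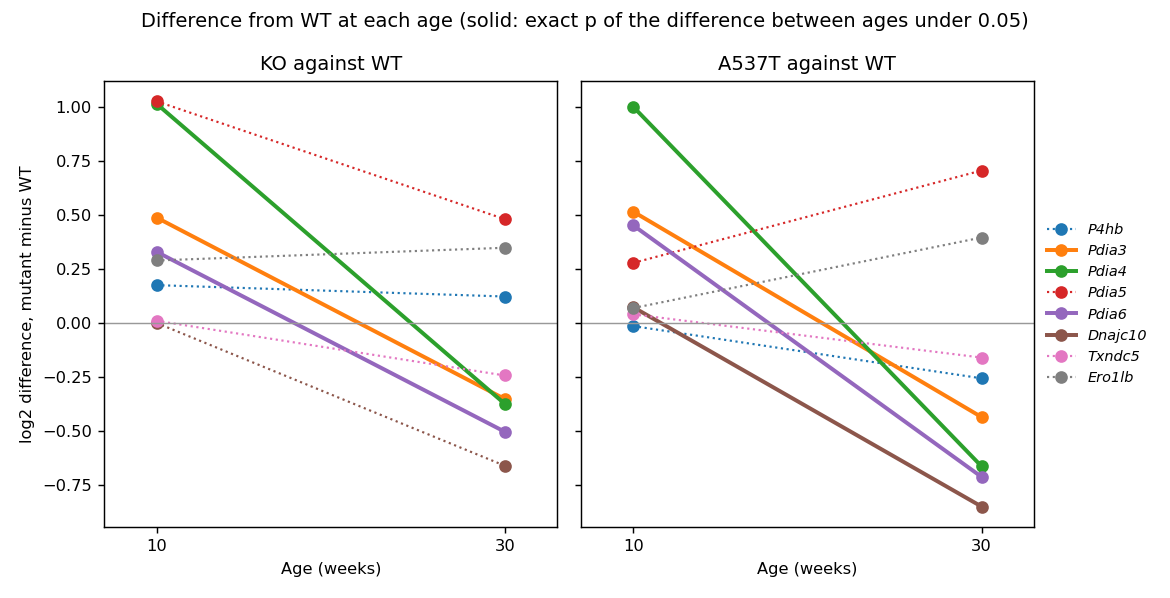
The log2 difference of each gene from WT at 10 and at 30 weeks, for KO and for A537T, with solid lines where the exact p of the difference between ages, not adjusted, was under 0.05. Pdia3, Pdia4 and Pdia6 are solid in both panels, and Dnajc10, solid in A537T, ends at -0.66 in KO and -0.85 in A537T.

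Pdia5 and Ero1lb are set here beside the seminal vesicle share of each library. In CPM, the 9 libraries with over 1% seminal vesicle counts had 8.50 to 20.9 of Pdia5, with a median of 11.2, and the other 9 had 4.53 to 10.2, with a median of 5.82. This split mixes ages and genotypes. At 10 weeks the A537T libraries, all under 1%, had 9.41 to 10.2, beside 8.50 and 10.3 in the WT libraries over 1%. Within the mutants at 30 weeks, Pdia5 was at 97.2 and 91.9 normalized counts in 4AF and 6AF but at 39.7 in 5AF, and at 110.5 and 104.1 in 7AF and 9AF but at 49.2 in 8AF, where WT ranged from 43.3 to 68.0. The mutant libraries with little seminal vesicle RNA lay within or below the WT range. The part of the seminal vesicle genes in these values was not tested beyond this. Without the libraries over 1% the difference of Pdia5 at 30 weeks was -0.34 in KO and -0.03 in A537T, in place of 0.48 and 0.71.

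Ero1lb showed the same order at 30 weeks. It had 594, 468 and 622 normalized counts in 4AF, 5AF and 6AF, and 584, 473 and 674 in 7AF, 8AF and 9AF, against 361 to 511 in WT. The libraries 5AF and 8AF, with under 1% seminal vesicle counts, lay within the WT range. Without the libraries over 1% its differences were 0.10 in KO and 0.13 in A537T. Dnajc10 at 30 weeks had 1037 and 1069 CPM in the KO libraries over 1% and 1482 in 5AF, and 811 and 988 in the A537T libraries over 1% and 1432 in 8AF. In WT at 10 weeks the order was the opposite, with 1088 and 1201 in the libraries over 1% and 836 in 12AF. Over both ages the medians of Pdia3, Pdia4, Pdia6, Dnajc10 and Txndc5 were lower in the 9 libraries over 1%, a comparison that mixes ages and genotypes.

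**Figure D5:**
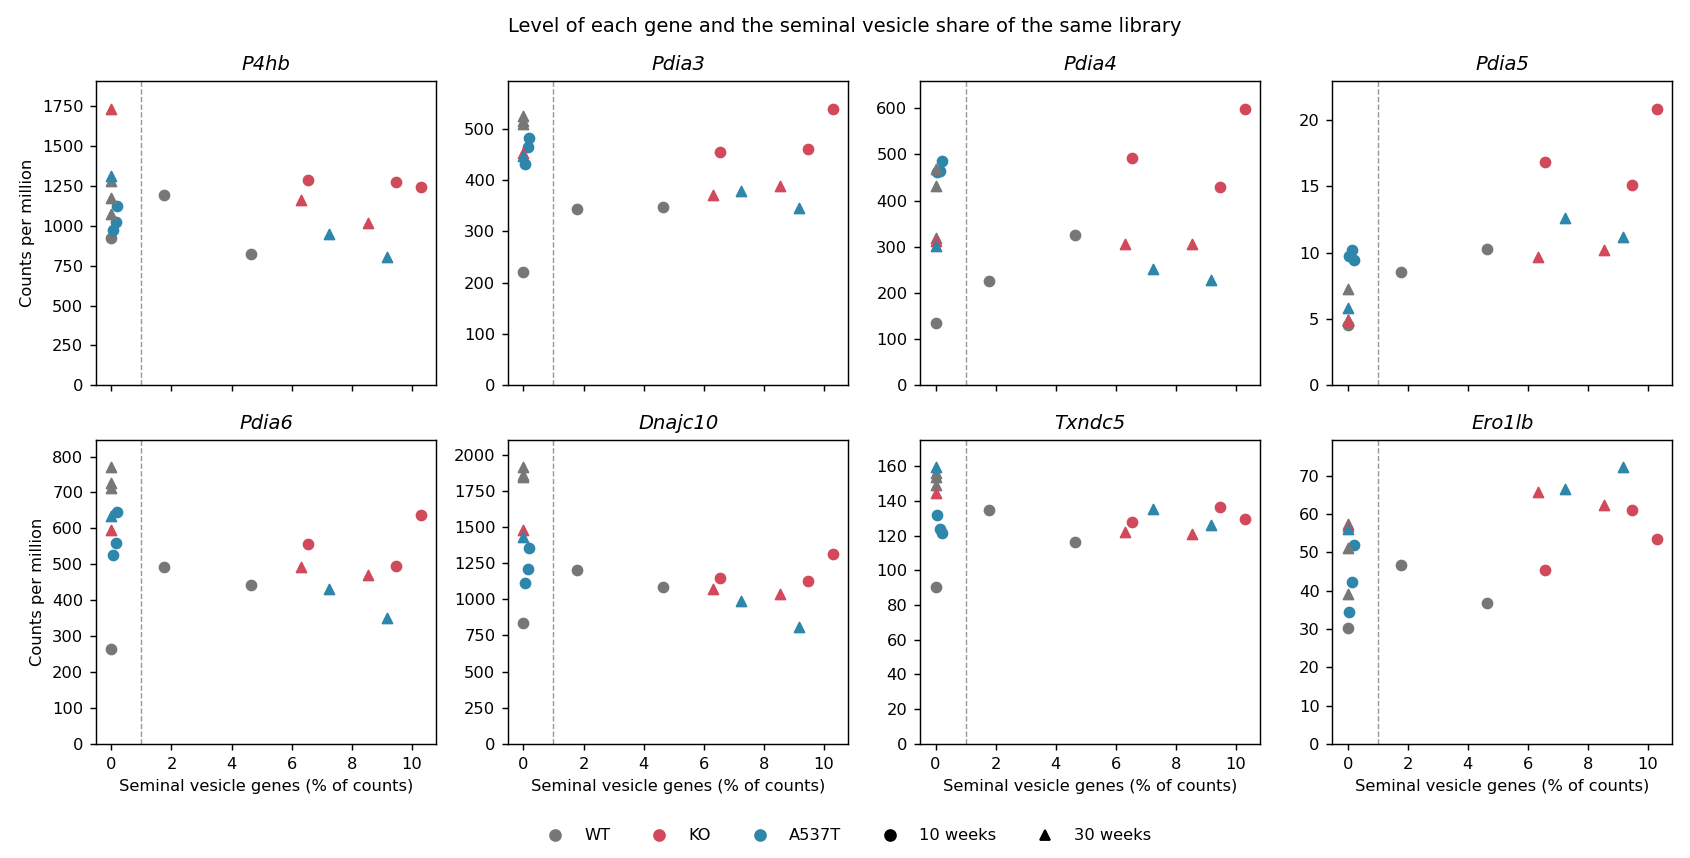
CPM of each gene against the percent of counts from 10 seminal vesicle genes, 1 point a library, with circles at 10 weeks, triangles at 30 weeks and a dashed line at 1%. Pdia5 lies between 8.50 and 20.9 to the right of the line and between 4.53 and 10.2 to the left, and the 30-week WT libraries are the highest points of Dnajc10.

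Correlations between members over the 18 libraries, which share depth and tissue make-up within a library and differ in age and genotype, are given as a description. On the log2 scale of CPM, with each gene centred within its age, Pearson's r was 0.94 between Pdia3 and Pdia4, 0.93 between Pdia3 and Pdia6 and 0.91 between Pdia6 and Dnajc10. Pdia5 and Ero1lb had r = 0.64 with each other, and Pdia5 had r = -0.32 with Dnajc10. P4hb was loosely tied to the rest, with r between -0.13 for Pdia5 and 0.59 for Pdia6. Among 9990 other genes, those most like the mean standardized profile of the members, again centred within age, were Qpctl (r = 0.94), Ctnnd1 (r = 0.93), Calr (r = 0.93), Ncstn (r = 0.93), BC005537 (r = 0.92), Cherp (r = 0.92), Tmed10 (r = 0.92) and Prkcsh (r = 0.92). The middle gene of this comparison had r = 0.33.

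Chaperones of the ER, which hold unfolded proteins while the isomerases work on them, were mostly above WT at 10 weeks and below it at 30 weeks. Of 21 genes, 6 were higher and 0 lower at an unadjusted limma p under 0.05 in KO at 10 weeks, and 9 were higher and 0 lower in A537T at 10 weeks. At 30 weeks 10 were lower in KO and 12 in A537T, with 0 higher in either. Over all genes 7.97 and 2.76% were higher at 10 weeks and 5.41 and 6.28% lower at 30 weeks at that p. No chaperone was called by limma at an adjusted p under 0.05. DESeq2 called 4 and 5 higher at 10 weeks, beside 1.21 and 0.185% of all genes. At 30 weeks it called 3 and 2 lower, beside 0.611 and 1.01% of all genes. Hspa5 (BiP) differed at 10 weeks by 0.51 in KO and 0.84 in A537T, then by -0.31 and -0.26 at 30 weeks. Hsp90b1 (GRP94) differed by 0.98 and 0.88 at 10 weeks and by -0.41 and -0.57 at 30 weeks, and Calr by 0.33 and 0.44 at 10 weeks and by -0.36 and -0.47 at 30 weeks. The medians of the list were 0.28, 0.27, -0.30 and -0.34 in KO and A537T at 10 weeks and KO and A537T at 30 weeks. ERSE was in 6 of the 17 of these genes with a promoter window, Hspa5, Hsp90b1 and Calr included.

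The 12 genes of ER-associated degradation, which returns misfolded proteins to the cytosol, had 4 higher and 0 lower at the same unadjusted p in each line at 10 weeks, beside 7.97 and 2.76% higher over all genes. At 30 weeks 1 was higher and 8 lower in KO and 0 higher and 3 lower in A537T, beside 5.41 and 6.28% lower over all genes. None was called by limma at an adjusted p under 0.05. DESeq2 called 1 and 3 higher at 10 weeks, beside 1.21 and 0.185% of all genes. At 30 weeks it called 0 of these genes in either line, beside 0.611 and 1.01% of all genes lower. Sel1l, the scaffold of the Hrd1 ligase, differed by 0.48 and 0.60 at 10 weeks and by -0.40 and -0.21 at 30 weeks. Os9 differed by -0.05 and 0.09 at 10 weeks and by -0.36 and -0.40 at 30 weeks, and Vcp by -0.10 and 0.04, then -0.17 and -0.05. Of 13 tested regulators of the unfolded protein response, 3 were higher in KO and 1 in A537T at 10 weeks, 1 was higher and 1 lower in KO at 30 weeks, and 1 was lower in A537T at 30 weeks. Over all genes 2.76 to 7.97% stood in those directions at that p. Xbp1, the spliced activator, differed by -0.19 and 0.03 at 10 weeks and by 0.06 and 0.09 at 30 weeks. Ern1 (IRE1), which splices it, differed by 0.94 and -0.23, then by 0.20 and 0.37. Atf6 differed by 0.29 and 0.32, then by -0.41 and -0.61, the last of these called by DESeq2 (adjusted p = 0.0183).

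Of 15 other members of the isomerase family 11 were tested. The medians were 0.03 and 0.02 in KO and A537T at 10 weeks and -0.16 and -0.07 at 30 weeks. In KO at 10 weeks 1 was higher and 1 lower at an unadjusted limma p under 0.05, and in A537T at 10 weeks 0 were. In KO at 30 weeks 1 was higher and 2 lower, and in A537T at 30 weeks 2 were lower. Over all genes 7.97% were higher and 11.5% lower at that p in KO at 10 weeks. At 30 weeks 5.56% were higher and 5.41% lower in KO, and 6.28% were lower in A537T. Agr2, an isomerase of mucous and prostate epithelium, differed by -0.82 and -0.68 in KO at 10 and 30 weeks (DESeq2 adjusted p = 0.0428 and 0.0271) and by 0.14 and -0.96 in A537T. Erp44 differed by 0.55 and 0.12 at 10 weeks and by -0.33 and -0.11 at 30 weeks, and Erp29 by 0.20 and 0.25, then -0.37 and -0.44.

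Of 9 other genes of ER oxidation 1 was higher in KO at 10 weeks at an unadjusted limma p under 0.05, and 0 were in A537T at 10 weeks. Of 8 tested at 30 weeks 1 was lower in KO and 0 in A537T. Over all genes 7.97% were higher at that p in KO at 10 weeks and 5.41% lower in KO at 30 weeks. Counts of 0 or 1 among so few genes are near these shares. Qsox1, a secreted sulfhydryl oxidase, differed by 1.13 in KO at 10 weeks (DESeq2 adjusted p = 0.0337), -0.15 in A537T at 10 weeks, 1.16 in KO and 1.07 in A537T at 30 weeks. Selenof differed by at most 0.05 in size at 10 weeks and by -0.11 and -0.18 at 30 weeks, and Vkorc1l1 by 0.11, -0.04, 0.03 and 0.16 in the 4 comparisons. The partners of P4hb in prolyl 4-hydroxylase and lipid transfer were measured by 3 tested genes of 4. P4ha1 differed at 10 weeks by -0.34 in KO and 0.57 in A537T, then by -0.25 and 0.24 at 30 weeks. P4ha2 differed by 0.14 and 0.10, then by -0.49 and -0.56, and Mttp by 0.29 and 0.03, then by 0.15 and 0.31.

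The remaining lists marked cell types, and their medians over tested genes are given in the order KO and A537T at 10 weeks, KO and A537T at 30 weeks. Genes of prostatic secretion had -2.66, -0.04, -0.60 and -0.54, luminal markers -0.01, 0.13, -0.15 and -0.30, and basal markers 0.43, 0.72, 0.58 and 0.31. Smooth muscle had 0.85, 0.91, 0.28 and 0.22, fibroblasts 0.07, 0.36, 0.08 and 0.36, and adipocytes -0.89, 0.52, 2.02 and 1.24. Macrophages had -0.30, 0.01, 0.46 and 1.01. Seminal vesicle, skeletal muscle, and plasma and B cell genes are described by the shares of counts given before. Their part in the members' values was not tested beyond the fits with seminal vesicle, skeletal muscle, and plasma and B cell scores.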

How the data were processed

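Per the study's methods, reads were trimmed with Trim Galore 0.4.1 and cutadapt 1.18, aligned with STAR 2.7.3a to GRCm38.p6 with nuclear copies of mitochondrial DNA masked, and quantified with Salmon in strand-specific mode on GENCODE genes. The authors then scaled the estimated counts with DESeq2 1.26 size factors in 4 tables of 6 libraries. The deposited values are therefore a signal, normalized counts, and not raw counts. Dividing each column by its smallest step gave whole counts, within a tolerance of 0.01 that was widened in proportion to the count. For 4 columns whose step is close to 1 this check could not be made. The recovered counts are the authors' estimates as they entered each table and not raw reads. For the same WT library they differed between its 2 tables in 53.6 to 64.1% of genes, and for the members by at most 2.49%. The deposited tables of the authors' own fold changes and s-values were not used. Columns were assigned by library name, and 0 columns were left over. The labels give 3 replicates of each line at an age, and the study describes its replicates as biological.

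Of 55469 gene identifiers, 54450 matched the reference table with their version and 55107 without it. limma 3.58.1 (R 4.3.3), with a mean trend, was fitted to the log2 of normalized count plus 1 for genes whose mean reached 10 normalized counts, with Benjamini-Hochberg adjustment over all genes of a table, at 0.05. A fold is on that scale. Each comparison was made within its table, since the WT libraries were normalized again in each. edgeR 4.0.16 and DESeq2 1.42.0 were run on the recovered counts as alternatives, beside other pseudocounts, filters, scalings, covariates and fits without each library. Exact permutation compared the ages, with p-values adjusted over all genes that passed the filter in both tables of a line. Shares of list genes are percent of normalized counts, computed here. Exon lengths and overlaps came from GENCODE vM21 and promoters from RefSeq. Genes of lists are named by rank of mean count, the first 3 of each list, and the genes most like the members as the first 8 by Pearson's r among those with a mean of at least 50 normalized counts. The members, lists and rules were chosen with earlier results of these data known. Depth limits Pdia5 most, which had the fewest recovered counts of the members.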

Additional observations from a re-analysis of the deposited data

Results flagged for a closer look

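The difference from WT was lower at 30 weeks than at 10 weeks for 3 genes in both lines. In KO the log2 difference at 30 weeks minus that at 10 weeks was -0.84 for Pdia3, -1.39 for Pdia4 and -0.83 for Pdia6. In A537T it was -0.95 for Pdia3, -1.66 for Pdia4 and -1.16 for Pdia6. The exact permutation p of these 6 values lay between 0.005 and 0.015, and between 0.308 and 0.420 after adjustment over all genes. Since the exact p cannot go below 0.005, that adjustment could hardly be passed. They were picked out by adjustment over the 16 tests of the members, which were chosen with results of these data known and give no independent support. Pdia6 overlapped with WT at 10 weeks in both lines, and Pdia4 in KO at 30 weeks. Both lines share their WT libraries, so the values of one line do not stand as a repeat of the other.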

How the results depend on the processing

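No paired analysis was possible because the columns of the tables carry no replicate number that links libraries across genotypes. Of the members' log2 differences under other settings (all libraries or the added choice), 368 kept direction and side of the threshold, 10 newly passed and 11 reversed.

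The members' median was 0.52 with scaling to the same total and 0.62 with quantile normalization in KO at 10 weeks (main 0.31), where the median of all genes was 0.20 under the former. It was 0.37 with the skeletal muscle score in A537T at 10 weeks, -0.21 with quantile normalization in KO at 30 weeks, and in A537T at 30 weeks -0.43 with a minimum mean of 100, -0.23 with quantile normalization, -0.17 with the seminal vesicle score and -0.95 with the plasma and B cell score. The fit with the plasma and B cell score cannot part genotype from that score, which was higher in every A537T library than in WT. Genes called, 0 in each comparison, were 715, 90, 285 and 476 with DESeq2. They were 1 in KO at 10 weeks without the mean trend, 2 in A537T at 10 weeks with a minimum mean of 1, with no filter and without the mean trend, and with the seminal vesicle score 1 in A537T at 10 weeks and 3 in A537T at 30 weeks. Reversals were Dnajc10 (-0.086) and Txndc5 (-0.092) in KO at 10 weeks with the seminal vesicle score, P4hb in A537T at 10 weeks with the same total (0.13), quantile normalization (0.22), the plasma and B cell score (0.00035) and the muscle score (0.33), Pdia5 in KO at 30 weeks (-0.23) and P4hb in A537T at 30 weeks (0.035) with the seminal vesicle score. The difference between ages with the same total was -0.88 for Dnajc10 and -0.47 for Txndc5 in KO and -1.04 for Dnajc10 in A537T, all newly past the threshold over the 16 tests of the members, and -0.16 for Ero1lb in KO, reversed. The causes were not tested.

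Leaving out libraries with over 1% seminal vesicle counts, a choice made after seeing the data, left a single WT or mutant library, assumed to vary like the others. The median was then 0.45 with 569 genes called in A537T at 10 weeks, and -0.17 with 1 gene called in A537T at 30 weeks, with P4hb at 0.072 and Pdia5 at -0.034. Pdia5 was at -0.34 in KO at 30 weeks. For KO at 10 weeks no KO library remained.

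Without each library in turn, genes called ranged from 0 to 2886 in KO at 10 weeks (2886 without 10AF, 185 without 14AF), from 0 to 50 in A537T at 10 weeks (50 without 10AF, 1 without 11AF, 2 without 12AF), from 0 to 944 in KO at 30 weeks (944 without 5AF, 2 without 1AF) and from 0 to 1224 in A537T at 30 weeks (1224 without 8AF, 6 without 1AF). Medians ranged from 0.25 to 0.45, 0.05 to 0.30, -0.31 to -0.22 and -0.46 to -0.26. In KO at 10 weeks P4hb ranged from -0.018 to 0.30, Dnajc10 from -0.051 to 0.079 and Txndc5 from -0.039 to 0.11. In A537T at 10 weeks P4hb ranged from -0.20 to 0.10, Dnajc10 from -0.041 to 0.20, Txndc5 from -0.012 to 0.13 and Ero1lb from -0.12 to 0.27, and in KO at 30 weeks P4hb from -0.034 to 0.25. Pdia6 was at 0.16 in KO and 0.28 in A537T at 10 weeks without 12AF, and Pdia5 in A537T at 10 weeks at 0.044 without 12AF and 0.44 without 10AF. In KO at 30 weeks Pdia5 was at 0.26 without 4AF, 0.29 without 6AF and 0.89 without 5AF, P4hb at 0.25 without 4AF, and Pdia4 and Ero1lb at -0.24 and 0.22 without 2AF. In A537T at 30 weeks Pdia5 was at 1.08 without 8AF, and P4hb at -0.42 without 8AF and -0.14 without 9AF. Differences between ages in KO ranged from -0.21 to 0.14 for P4hb, -1.61 to -1.16 for Pdia4, -0.98 to -0.67 for Pdia6, -0.76 to -0.60 for Dnajc10, -0.35 to -0.20 for Txndc5 and -0.071 to 0.18 for Ero1lb. In A537T they ranged from -1.37 to -0.99 for Pdia6, -1.11 to -0.78 for Dnajc10 and -0.29 to -0.15 for Txndc5.

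With 3 libraries a group, an exact test of a single gene within one age cannot go below 0.1.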
